A study of Mus musculus with 62 samples.

Results

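The hypoxia comparison in floxed mice set gastrocnemius (GC) muscle of 4 F/F mice kept in low oxygen (Hypo F/F) against GC of 4 F/F mice kept in room air (Norm F/F). These 8 libraries were chosen by group label out of the 62 libraries of the series. F/F mice carry a floxed ChREBP (Mlxipl) gene without Cre, so that the protein is kept, and are littermate controls of the muscle knockout ChMKO, which carries the same floxed gene with MCK-Cre, a Cre driven by a muscle creatine kinase promoter that also acts in heart. All were male mice of 8 to 10 weeks. Hypo F/F mice (WTc341, WTc348, WTc360 and WTc361) lived for 2 weeks in a chamber that simulated an altitude of about 5500 m at 46 to 49 kPa and were returned to standard housing for tissue collection, and Norm F/F mice (WTc368, WTc369, WTc397 and WTc401) were the normoxic controls. Bulk tissue was used, so a change in the number of fibers or cells of a type and a change in RNA per cell cannot be told apart. Levels are given in FPKM, which scales the fragments of a gene by its length and by the depth of its library.

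GC of the mouse is built mostly of fast-twitch fibers, which use the fast isoforms of myosin, troponin and the calcium pump. Slow-twitch fibers use a separate set of isoforms, rest on mitochondrial respiration and are the main fibers of the soleus (SOL). Cells sense oxygen through prolyl hydroxylases and the von Hippel-Lindau protein (Vhl), which together mark the transcription factors HIF-1alpha (Hif1a) and HIF-2alpha (Epas1) for breakdown. When oxygen is short these factors persist and switch on genes of glycolysis, glucose entry and vessel growth.

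The libraries held 14817171 to 20307286 reads on genes. The 10 defining markers of muscle fibers summed to 32302 to 57603 FPKM per library. The test covered the 10740 genes whose mean over the 8 libraries reached 0.5 FPKM. The 8 libraries fell into a pair of library sets that no label names, each with 2 Hypo F/F and 2 Norm F/F mice. In set A (mice WTc360, WTc361, WTc397 and WTc401) the long sarcomere gene Xirp2 stood at 306 and 324 FPKM in the higher mouse of each group, and in set B (mice WTc341, WTc348, WTc368 and WTc369) at 15.7 to 20.0 FPKM. The same gene stood at 290.0 to 331 FPKM in all 8 libraries of the high-fructose groups and at 12.3 to 32.6 FPKM in the 8 ChMKO libraries of the hypoxia experiment. The set term was past an adjusted p of 0.05 in 5457 genes (limma), and each gene was fitted with the set as a block.

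The genes that rose under hypoxia by the study's criterion included the slow-twitch troponins Tnnc1, Tnni1 and Tnnt1 and the myosin Myh7, with log2 fold changes of 2.09 to 2.32, together with the muscle stress protein Csrp3 and the cardiac actin Actc1. The genes that fell by the study's criterion were of mixed function, among them the mitochondrial carrier Slc25a30, the glutamate receptor partner Neto2 and the myogenic factor Myod1. The study's criterion asks for a log2 fold change of 1 or more in size and an unadjusted p under 0.05, and 20 genes passed it, 12 higher and 8 lower. That is 0.186% of the genes tested, with 0.112% higher and 0.0745% lower. In the test across all genes (limma, Benjamini-Hochberg) 0 genes were past an adjusted p of 0.05, a share of 0%, and the smallest adjusted p was 0.101, shared by 7 genes. The model voom on recovered reads also gave 0, with an unadjusted p under 0.05 in 757 genes higher and 608 lower. Other settings gave 26 genes past an adjusted p of 0.05 (limma, all 24 libraries in one fit), 74 (within library set A) and up to 5 (without mouse WTc348). Of the 26 genes only 2, Neto2 and 1700001O22Rik, were among the 20 past the criterion. The criterion was passed by 47 genes with a pseudocount of 0.1 and by 57 with voom. The unadjusted p was under 0.05 in 336 genes with higher values (3.13%) and in 1241 with lower values (11.6%), and these shares moved to 750 higher and 628 lower after each library was rescaled by its median ratio. All 4 mice of one group lay outside the range of the other in 41 genes higher in hypoxia (0.382%) and 285 genes lower (2.65%), or in 192 and 153 after rescaling. The median log2 fold change over all genes was -0.06, or -0.01 after rescaling.

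Slow troponin C (Tnnc1), the calcium sensor of slow fibers, stood at 232, 41.5, 67.4 and 66.0 FPKM in Hypo F/F mice WTc341, WTc348, WTc360 and WTc361. In Norm F/F mice WTc368, WTc369, WTc397 and WTc401 it stood at 5.62, 53.4, 15.5 and 11.4 FPKM. The groups overlapped only through hypoxic mouse WTc348 and normoxic mouse WTc369. The log2 fold change of Tnnc1 was 2.32 (SE 0.679, adjusted p = 0.226, limma), and it was 2.24 within set A and 2.39 within set B. The gene lies on chr14:30930269-30933686 (GRCm39).

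Slow troponin I (Tnni1), the inhibitory subunit of the same complex, stood at 50.2, 7.18, 13.5 and 13.0 FPKM in Hypo F/F and at 0.572, 8.53, 2.61 and 1.74 FPKM in Norm F/F mice, in the same order. Its log2 fold change was 2.29 (SE 0.647, adjusted p = 0.224). Slow troponin T (Tnnt1), which anchors the complex on tropomyosin, stood at 180.5, 34.1, 84.4 and 69.5 FPKM in Hypo F/F and at 8.50, 49.0, 16.1 and 13.3 FPKM in Norm F/F mice, with a log2 fold change of 2.09 (SE 0.591, adjusted p = 0.224). In all 3 troponin genes mouse WTc369 was the highest of the Norm F/F mice and mouse WTc348 the lowest of the Hypo F/F mice.

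The slow myosin heavy chain Myh7, the motor of slow fibers, stood at 53.7, 9.13, 25.5 and 22.7 FPKM in Hypo F/F and at 0.930, 12.3, 5.14 and 3.16 FPKM in Norm F/F mice. The log2 fold change was 2.26 (SE 0.647, adjusted p = 0.226), at 2.31 within set A and 2.22 within set B. Tpm3, the slow tropomyosin, stood at 60.8, 14.6, 23.5 and 26.4 FPKM in Hypo F/F and at 8.52 to 21.9 FPKM in Norm F/F mice (log2 fold change 1.21, SE 0.414, adjusted p = 0.265). Atp2a2, the calcium pump of slow fibers and heart, had a mean of 86.8 ± 51.5 FPKM (SD, n = 4) in hypoxia and 35.8 ± 22.2 FPKM in normoxia (log2 fold change 1.22, SE 0.492, adjusted p = 0.312). Its call was lost without any one of mice WTc341, WTc360, WTc361, WTc368, WTc397 or WTc401, with fold changes over the 8 left-out fits of 0.84 to 1.72. The call of Tpm3 was lost without mouse WTc341 or WTc368, with 0.85 to 1.64. Both calls were also lost within set B (0.91 for Atp2a2 and 1.07 for Tpm3). The calls of Tnnc1, Tnni1, Tnnt1 and Myh7 held in all 8 such fits and were lost within set B alone, which holds 2 mice of each group, though the fold changes there were 1.87 (Tnnt1) to 2.40 (Tnni1).

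**Figure D1:**
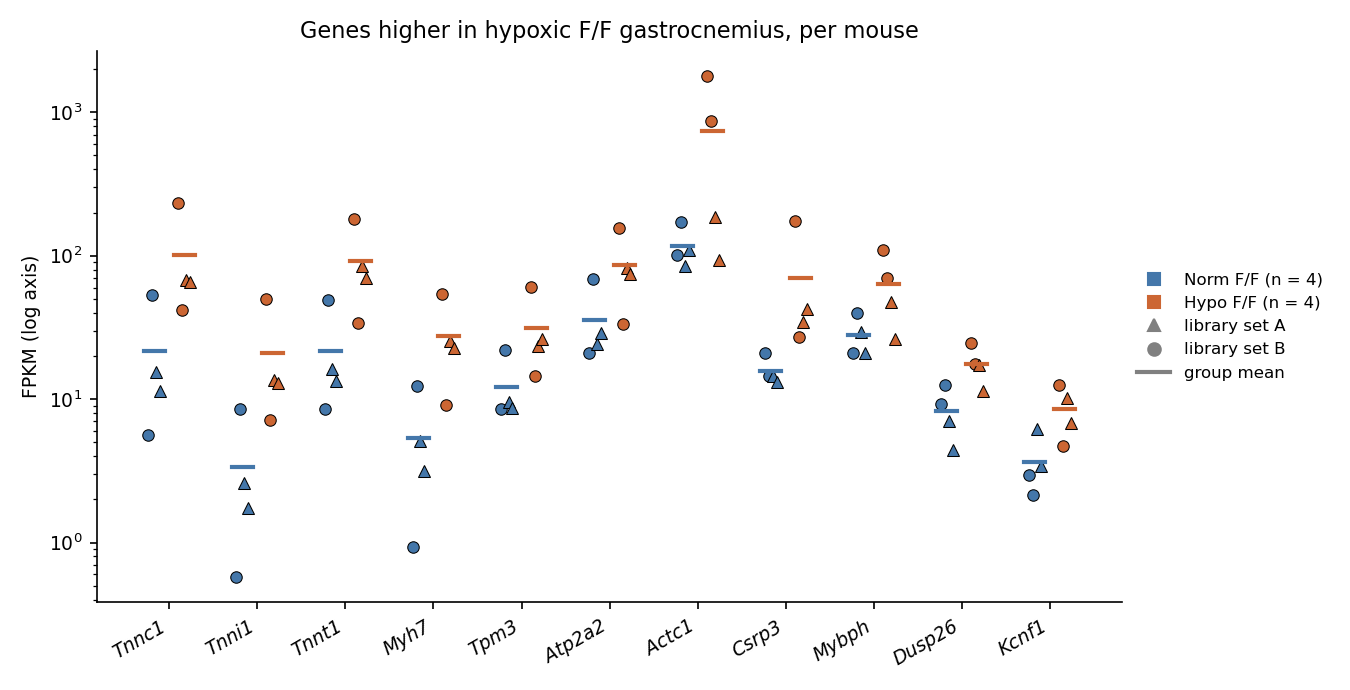
FPKM on a log axis for 11 of the 12 genes past the study's criterion and higher in hypoxia (Gm17720, at 0 in 6 of 8 libraries, cannot be drawn on it); each point is 1 mouse, the triangles library set A and the circles set B, and the bar is the group mean of 4 mice. The hypoxic points of Csrp3 (27.0 to 174 FPKM) all lie above the normoxic ones (13.1 to 21.0 FPKM), while those of the troponins and Myh7 overlap through a single mouse of each group.

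Of the 12 genes listed for the slow-twitch sarcomere 11 were tested, and all 11 had a higher fitted value in hypoxia, with a median log2 fold change of 1.16, a range of 0.12 to 2.32 and 5 past the study's criterion. Over all genes tested, 3273 of 10740 had a higher value and 0.112% passed the criterion with one. The member not tested, Myh7b, had a mean of 0.473 FPKM over the 8 libraries. Among the members short of the criterion, the slow regulatory light chain Myl2 stood at 166 ± 102 FPKM in hypoxia and 73.7 ± 51.1 FPKM in normoxia (log2 fold change 1.16, adjusted p = 0.359), and the slow essential light chain Myl3 at 122 ± 95.0 and a mean of 71.5 FPKM (0.84, adjusted p = 0.532). Outside this list, Casq2, the calcium store protein of slow fibers and heart, had a log2 fold change of 0.91 (adjusted p = 0.265). The embryonic myosin Myh3 was low throughout, at 0.383 to 2.29 FPKM in hypoxia and 0.233 to 0.713 FPKM in normoxia (0.70, adjusted p = 0.265). Myh3 was past the criterion with a pseudocount of 0.1 (1.36) and with voom (1.77). Its normoxic mean of 0.442 FPKM was under the filter of 0.5 FPKM, so it passed that filter only through the hypoxic mice.

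Of the 12 fast-twitch genes listed and tested, 9 were higher and 3 lower (11 and 1 after rescaling), with a median of 0.07 (0.15 after rescaling) and 0 past the criterion. Myh4, the myosin of the fastest fibers, stood at 9853 ± 1533 FPKM in hypoxia and 8855 ± 1253 FPKM in normoxia (log2 fold change 0.15, adjusted p = 0.613), Myh1 at 472 ± 113 and 430.2 ± 67.7 FPKM (0.12, adjusted p = 0.625) and Myh2, the myosin of fast oxidative fibers, at 147 to 433 and 220.0 to 479 FPKM (0.01, adjusted p = 0.989). The troponins Tnni2 and Tnnt3 had log2 fold changes of 0.11 (adjusted p = 0.633) and 0.05 (adjusted p = 0.840). Fast troponin C (Tnnc2) was listed at only 0.622 to 1.76 FPKM in these 8 libraries (-0.10, adjusted p = 0.832), whereas the separate table of chow-fed F/F mice gave it 13386 to 22962 FPKM in GC, so its level in the hypoxia table cannot be read as that of the gene. The fast light chain Mylpf stood at 10398 ± 3109 FPKM in hypoxia and 7236 ± 1832 FPKM in normoxia (0.51, SE 0.0873, adjusted p = 0.145), and Actn3, the fast alpha-actinin, was at 3167 to 4468 FPKM in hypoxia and 2533 to 3042 FPKM in normoxia without overlap (0.36, adjusted p = 0.216).

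The score of 5 slow-twitch markers, a mean of log2(FPKM + 1) per mouse, was 5.56, 3.48, 4.34 and 4.28 in Hypo F/F and 1.57, 3.75, 2.60 and 2.29 in Norm F/F mice. The difference was 1.86 (exact permutation test, two-sided, p = 0.0571, adjusted over 4 score tests 0.171). That test reassigned mice in 70 ways without regard to the library sets, and 4 against 4 mice allow no p below 0.0286. With mice reassigned only within their set, in 36 ways, the exact permutation p was 0.111, where the smallest possible is 0.0556. Within set A it was 1.87 and within set B 1.85. With a mouse left out it ranged from 1.48 (without WTc341, exact permutation p = 0.0857) to 2.26 (without WTc369, p = 0.0286, or 0.0556 within sets), and the other 6 such fits had p of 0.0571 to 0.0857. The score of 6 fast-twitch markers differed by 0.06 (exact permutation p = 0.457, or 0.278 within sets), with 0.09 in set A and 0.02 in set B, and by 0.13 after rescaling (exact permutation p = 0.0286, or 0.0556 within sets). Tnnc2, at 0.23 in set A and -0.42 in set B, is among these markers, and without it the score differed by 0.09 (exact permutation p = 0.371) and by 0.16 after rescaling (p = 0.0571).

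**Figure D2:**
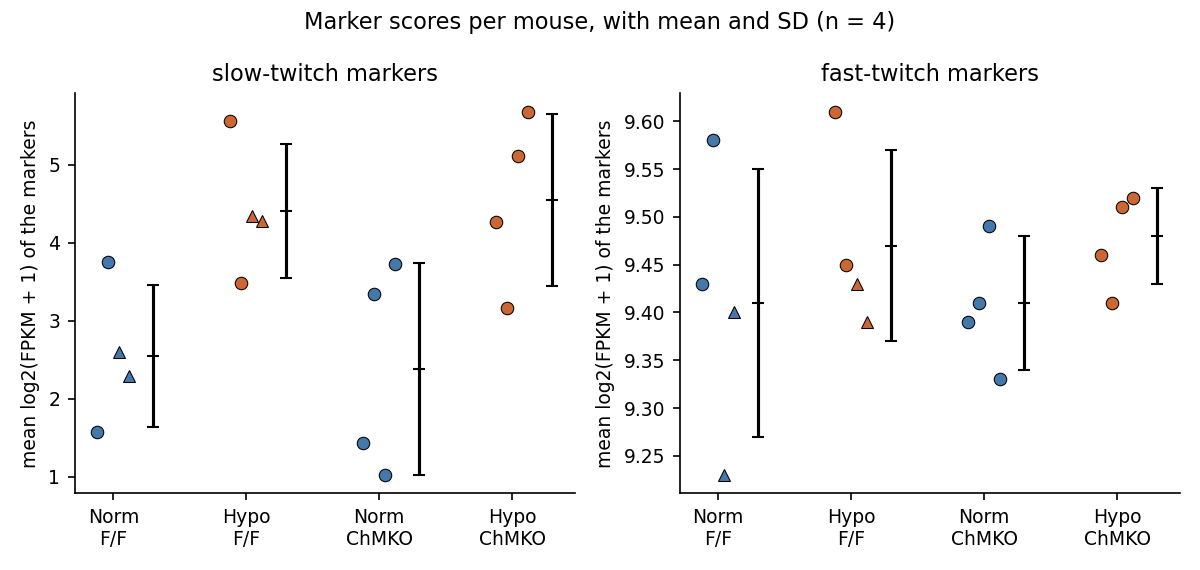
Mean log2(FPKM + 1) of the slow-twitch (left) and fast-twitch (right) markers in each mouse of the normoxic and hypoxic F/F and ChMKO groups, with the group mean and SD (n = 4); triangles are library set A. The slow-twitch mean was 2.55 in Norm F/F and 4.41 in Hypo F/F, and the fast-twitch axis covers a much smaller range.

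The other genes that rose belong to no single fiber type. Csrp3, the muscle LIM protein of the Z-disc, which responds to stretch, was the only gene of the 12 whose groups did not overlap, at 174, 27.0, 34.7 and 42.4 FPKM in Hypo F/F and 21.0, 14.6, 14.4 and 13.1 FPKM in Norm F/F mice (log2 fold change 1.67, SE 0.478, adjusted p = 0.226). The change was 1.09 without mouse WTc341 and up to 2.14 with another mouse left out, and the call was lost within set B, at 1.92. Actc1, the cardiac actin that skeletal muscle expresses in development and stress, stood at 1796, 864, 186 and 92.8 FPKM in hypoxia and 101, 171, 84.3 and 109.6 FPKM in normoxia. Its log2 fold change was 1.84 (SE 0.563, adjusted p = 0.234), with 3.23 in set B against 0.45 in set A, and the call was lost without the block.

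Mybph, a myosin-binding protein, stood at 110.1, 69.7, 47.4 and 26.2 FPKM in hypoxia and 21.1, 39.9, 29.2 and 20.9 FPKM in normoxia (1.03, SE 0.315, adjusted p = 0.234), with 1.56 in set B and 0.50 in set A. The phosphatase Dusp26 stood at 11.3 to 24.5 FPKM against 4.39 to 12.6 FPKM (1.03, SE 0.191, adjusted p = 0.154) and the potassium channel subunit Kcnf1 at 4.72 to 12.5 against 2.16 to 6.18 FPKM (1.02, SE 0.292, adjusted p = 0.226). Gm17720 was at 3.90 and 3.65 FPKM in the 2 hypoxic mice of set A and listed at 0 in the other 6 libraries. Its fitted change of 1.13 therefore rests on these 2 libraries, and no fold is given against a group at 0. Mybph lost the criterion without mouse WTc341, WTc360 or WTc368 (down to 0.75), Dusp26 without WTc341, WTc360, WTc368 or WTc401 (0.89 to 1.16) and within set B (0.88), Kcnf1 without WTc341, WTc360, WTc369 or WTc401 (0.71 to 1.22) and within set A (0.73), and Gm17720 without WTc360, WTc361, WTc397 or WTc401 (0.89 to 1.35), as well as without the block and with voom.

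To see what the promoters of these genes share, the 250 bases before the start of each gene were taken from RefSeq (GRCm38.p6). The core of the HIF site, ACGTG or GCGTG, the MCAT site CATTCC bound by TEAD factors and the E-box CANNTG bound by the MyoD family were searched on both strands. ACGTG overlaps the E-box where it is preceded by C. Of the 12 higher genes 9 matched a window, and 0 of the 9 held a HIF core, 3 held CATTCC and 7 held an E-box. Over all 27025 genes with a window the shares were 41.5%, 14.4% and 69.3%. Of the 8 lower genes 6 matched, and 3 held a HIF core, 0 CATTCC and 3 an E-box. A missing match says only that the letters are not in this window. The windows of Tnnc1 (chr14:31208062-31208311, plus strand), Tnnt1 (chr7:4515976-4516225, minus strand) and Csrp3 (chr7:48848052-48848301, minus strand) are printed as the genes that rose, with E-boxes in capitals.
Tnnc1: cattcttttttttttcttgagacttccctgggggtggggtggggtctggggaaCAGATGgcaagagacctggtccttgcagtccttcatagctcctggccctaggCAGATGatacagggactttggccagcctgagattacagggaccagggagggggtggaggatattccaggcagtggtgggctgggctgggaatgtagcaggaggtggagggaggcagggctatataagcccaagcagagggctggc
Tnnt1: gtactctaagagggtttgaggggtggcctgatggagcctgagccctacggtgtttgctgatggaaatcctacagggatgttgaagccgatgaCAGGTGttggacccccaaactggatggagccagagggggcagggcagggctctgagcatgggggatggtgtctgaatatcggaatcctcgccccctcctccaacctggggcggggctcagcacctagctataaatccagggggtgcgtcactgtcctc
Csrp3: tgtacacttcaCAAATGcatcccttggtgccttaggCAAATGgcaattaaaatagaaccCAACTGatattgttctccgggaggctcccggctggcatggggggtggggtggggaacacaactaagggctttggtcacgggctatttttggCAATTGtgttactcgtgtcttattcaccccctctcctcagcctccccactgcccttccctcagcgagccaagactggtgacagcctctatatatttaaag
Tnnc1 holds 2 E-boxes, Tnnt1 holds 1 and the window of Csrp3 holds 4. A gene with several windows counted as holding a motif if any of them did. For contrast, the windows of Ldha, a textbook HIF target (chr7:46845554-46845803, plus strand), and of Slc25a30, a gene that fell (chr14:75787038-75787287, minus strand), are printed with the HIF core of either strand in capitals.
Ldha: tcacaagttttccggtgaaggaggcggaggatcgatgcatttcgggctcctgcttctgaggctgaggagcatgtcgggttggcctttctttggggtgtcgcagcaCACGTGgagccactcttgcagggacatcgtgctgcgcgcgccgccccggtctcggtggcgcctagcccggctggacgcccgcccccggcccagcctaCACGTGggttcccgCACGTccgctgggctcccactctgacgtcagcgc
Slc25a30: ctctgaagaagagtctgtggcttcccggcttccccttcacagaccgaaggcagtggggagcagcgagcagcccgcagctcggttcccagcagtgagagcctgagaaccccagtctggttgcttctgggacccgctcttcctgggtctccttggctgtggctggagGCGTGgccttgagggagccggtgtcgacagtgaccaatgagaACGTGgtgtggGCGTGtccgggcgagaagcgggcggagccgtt
Ldha holds 5 matches, where the palindrome CACGTG counts on each strand, and Slc25a30 holds 3.

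Slc25a30, a mitochondrial inner membrane carrier, fell from 3.45, 9.82, 18.0 and 15.9 FPKM in Norm F/F mice WTc368, WTc369, WTc397 and WTc401 to 2.57, 2.68, 3.77 and 3.72 FPKM in Hypo F/F mice WTc341, WTc348, WTc360 and WTc361. The log2 fold change was -1.43 (SE 0.285, adjusted p = 0.154, limma), at -1.92 in set A and -0.94 in set B. Neto2, an auxiliary subunit of kainate receptors, fell from 2.38, 1.90, 6.63 and 8.47 FPKM to 0.381, 0.652, 1.01 and 1.98 FPKM (-1.42, SE 0.188, adjusted p = 0.101). In both genes every hypoxic mouse was below the normoxic mice of its own library set, and the groups overlapped only across the sets. Their calls held in each of the 8 fits that left out a mouse, and that of Slc25a30 was lost within set B alone.

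Nnat (neuronatin, a small membrane protein of the endoplasmic reticulum) and Sbk2 (a kinase of striated muscle) were the lower genes whose groups did not overlap. Nnat stood at 0.101, 0.106, 0.144 and 0.0808 FPKM in hypoxia and 1.54, 0.184, 4.02 and 2.65 FPKM in normoxia (-1.30, SE 0.308, adjusted p = 0.176). It passed the filter of 0.5 FPKM only through the normoxic mice, and its call was lost within set B (-0.65, against -1.95 in set A). Sbk2 stood at 14.5 to 19.2 FPKM in hypoxia and 30.3, 47.3, 29.0 and 32.4 FPKM in normoxia (-1.04, SE 0.157, adjusted p = 0.115). Sbk2 was at the limit of the criterion and fell short of it after rescaling, within set A (-0.84) and without mouse WTc348 or WTc369 (-1.16 to -0.88).

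Myod1, a master regulator of the muscle lineage that in adult muscle is higher in fast fibers, fell from 15.3, 17.3, 6.51 and 7.16 FPKM to 3.36, 7.03, 3.62 and 3.92 FPKM (-1.13, SE 0.219, adjusted p = 0.154). The lowest Norm F/F mouse was thus below the highest Hypo F/F mouse, WTc348, and the call was lost without mouse WTc341 (-1.24 to -0.87) and within set A (-0.72). 1700001O22Rik stood at 0.815 to 2.37 FPKM in hypoxia and 2.12 to 5.10 FPKM in normoxia (-1.12, SE 0.213, adjusted p = 0.154) and lost the call without mouse WTc360 or WTc369 (-1.31 to -0.96).

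The remaining genes to fall were Scd1 and Lep. Scd1, the desaturase that makes monounsaturated fatty acids, stood at 15.8, 21.7, 18.4 and 13.2 FPKM in hypoxia and 87.4, 14.0, 56.1 and 39.6 FPKM in normoxia (-1.22, SE 0.478, adjusted p = 0.304). Lep, the fat hormone leptin, stood at 0.165, 0.0768, 0.0157 and 0.206 FPKM and at 2.23, 0.101, 2.14 and 1.41 FPKM (-1.03, SE 0.301, adjusted p = 0.226), and passed the filter of 0.5 FPKM only through the normoxic mice. In both, normoxic mouse WTc369 lay with the hypoxic mice. The call of Scd1 was lost without any one of WTc341, WTc360, WTc361, WTc368, WTc397 or WTc401 (-1.79 to -0.77) and that of Lep without WTc360, WTc368 or WTc397 (-1.40 to -0.78), and both were lost within set B (-0.90 and -0.75). The 10 adipocyte markers, which include Lep itself, had a summed level of 66.8 to 78.1 FPKM in hypoxia. In Norm F/F mice WTc368, WTc369, WTc397 and WTc401 their sum was 92.6, 55.6, 104 and 86.2 FPKM. Of the 9 tested markers, again with Lep, 7 were lower, with a median of -0.35 (-0.32 after rescaling). Over all genes tested 7467 of 10740 were lower. Adipoq stood at 2.04 to 4.81 FPKM in hypoxia and 1.27 to 11.6 FPKM in normoxia (-0.86, adjusted p = 0.391) and Plin1, which coats the fat droplet, had -0.58 (adjusted p = 0.334). No marker of the list was at 0 in all 8 libraries. Normoxic mouse WTc369, lowest of its group in Adipoq (1.27 FPKM) and Lep, was also lowest in Nnat (0.184 FPKM). The part of adipocyte RNA in the values of Scd1, Lep and Nnat was not tested.

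**Figure D3:**
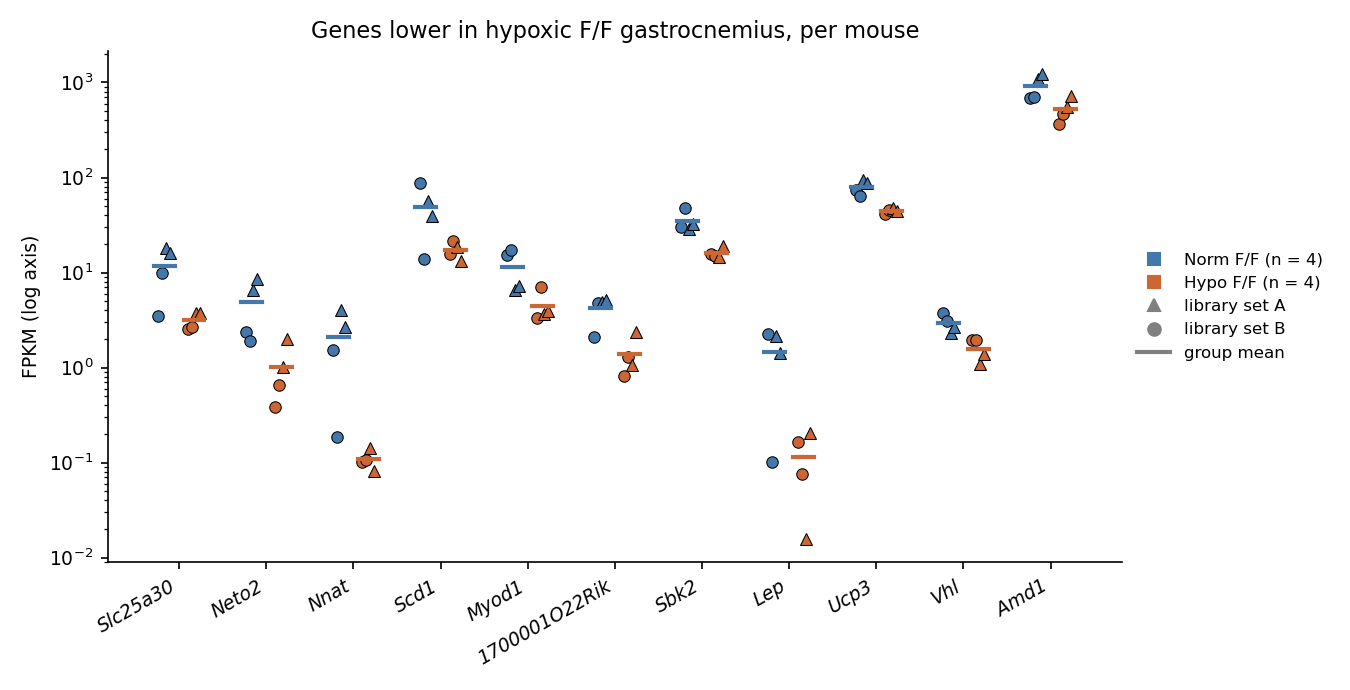
FPKM on a log axis for the 8 genes past the study's criterion and lower in hypoxia, and for Ucp3, Vhl and Amd1, which were short of the fold limit; points, bars and library sets as in the plot of higher genes. Hypoxic mice lie at 0.0808 to 0.144 FPKM in Nnat and at 41.2 to 47.2 FPKM in Ucp3, below every normoxic mouse.

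Several genes had changes smaller than the limit of the criterion. Ucp3, the uncoupling protein of the muscle mitochondrion that rises with fatty acid supply, had the smallest p of all genes and stood at 41.2, 45.6, 47.2 and 44.2 FPKM in hypoxia and 73.2, 64.5, 93.8 and 87.7 FPKM in normoxia. The log2 fold change was -0.81 (SE 0.0894, adjusted p = 0.101, limma), and the groups did not overlap. Htatip2, an oxidoreductase, stood at 1.64 ± 0.437 and 3.22 ± 0.286 FPKM without overlap (-0.69, adjusted p = 0.101). Aox1, aldehyde oxidase, stood at 2.25 to 3.05 and 3.70 to 4.50 FPKM without overlap (-0.47, adjusted p = 0.101). Tecr, an enzyme of long-chain fatty acid synthesis, stood at 143 ± 25.4 FPKM in hypoxia and 96.7 ± 14.2 FPKM in normoxia (0.55, adjusted p = 0.115). The peptide transporter Slc15a2 stood at 1.53 ± 0.866 and 0.438 ± 0.420 FPKM (0.80, adjusted p = 0.101), and it was past the criterion with a pseudocount of 0.1 (1.86) and with voom (1.98). Its mean was under the filter of 0.5 FPKM in the normoxic mice, so it passed that filter only through the hypoxic ones. These genes were named after their values were seen.

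Vhl was at 1.93, 1.93, 1.09 and 1.40 FPKM in Hypo F/F and 3.76, 3.09, 2.29 and 2.69 FPKM in Norm F/F mice, without overlap, a log2 fold change of -0.61 (SE 0.0818, adjusted p = 0.101), with -0.64 in set A and -0.59 in set B. Hif1a stood at 3.15 to 4.95 and 4.07 to 4.78 FPKM (-0.15, adjusted p = 0.461) and Epas1 at 37.0 ± 9.29 and 37.1 ± 8.61 FPKM (-0.01, or 0.06 after rescaling, adjusted p = 0.975). The prolyl hydroxylase Egln3, itself a HIF target, stood at 36.4, 15.5, 28.6 and 25.3 FPKM in hypoxia and 14.5, 28.2, 13.6 and 14.9 FPKM in normoxia (0.55, adjusted p = 0.400), with mouse WTc348 lowest in hypoxia and WTc369 highest in normoxia as in the slow-twitch genes. Over the 12 oxygen sensing genes tested 6 were higher and 6 lower (10 and 2 after rescaling), with a median of 0.00. The ubiquitin ligase Siah1a was the member higher without overlap (0.22, adjusted p = 0.302).

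HIF target genes had values in both directions, with log2 fold changes of -0.62 to 0.93. Of 30 tested 16 were higher and 14 lower (21 and 9 after rescaling), with a median of 0.02 (0.08 after rescaling), and 0 passed the criterion. The unadjusted p was under 0.05 in 3 higher and 2 lower members, of 30, beside 3.13% and 11.6% of all genes. The glycolytic enzyme Eno1 stood at 29.3, 26.0, 17.4 and 14.6 FPKM in hypoxia and 17.4, 20.4, 11.3 and 11.1 FPKM in normoxia (0.50, SE 0.0824, adjusted p = 0.126), higher within each library set. Reads of Eno1 may be shared with near-identical copies. Lactate dehydrogenase Ldha had 0.26 (adjusted p = 0.265) and Tpi1 0.21 (adjusted p = 0.313). Tfrc, the transferrin receptor, was lower at 33.8 ± 12.6 against 50.6 ± 12.2 FPKM (-0.62, adjusted p = 0.216), and Pfkfb4, which makes the activator of phosphofructokinase, was lower at 8.56 ± 2.00 against 12.6 ± 1.50 FPKM (-0.52, adjusted p = 0.226). Vegfa, the vessel growth factor, stood at 53.5, 27.4, 63.8 and 54.0 FPKM in hypoxia and 34.6, 47.3, 37.0 and 49.9 FPKM in normoxia (0.18, adjusted p = 0.720), and the glucose transporter Slc2a1 at 2.23 ± 0.957 and 3.00 ± 1.52 FPKM (-0.28, adjusted p = 0.400). The 23 angiogenic signals tested had a median of -0.02, or 0.05 after rescaling.

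ChREBP itself, the gene that the floxed allele targets, did not pass any threshold. Mlxipl stood at 8.05, 8.05, 8.76 and 7.98 FPKM in Hypo F/F and 8.63 ± 1.05 FPKM (SD, n = 4) in Norm F/F mice (log2 fold change -0.06, or 0.01 after rescaling, SE 0.0856, adjusted p = 0.771). Its paralog MondoA (Mlxip) stood at 15.3 ± 2.72 and 14.8 ± 1.52 FPKM (0.03, adjusted p = 0.909) and their partner Mlx at 5.06 ± 1.35 and 5.02 ± 0.649 FPKM (-0.01, or 0.05 after rescaling, adjusted p = 0.955). Txnip, a target of both paralogs, stood at 189.8 ± 64.5 and 183 ± 68.0 FPKM (0.05, adjusted p = 0.892). Of the 22 lipogenic and ChREBP target genes tested 8 were higher and 14 lower, with a median of -0.10 (-0.03 after rescaling, with 9 higher and 13 lower) and Scd1 as the member past the criterion, beside 0.0745% of all genes. With lower values, 4 of the 22 had an unadjusted p under 0.05, beside 11.6% of all genes. G6pdx and Tkt of the pentose phosphate pathway were lower (-0.33, adjusted p = 0.224, and -0.23, adjusted p = 0.226), as was the glycerolipid enzyme Gpam (-0.28, adjusted p = 0.271).

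Fuel and mitochondrial genes showed small values. Of 36 genes of fatty acid uptake and oxidation 29 were lower and 7 higher, with a median of -0.13, beside 7467 lower and 3273 higher over all genes tested, and after rescaling 25 were lower and 11 higher, with a median of -0.07. An unadjusted p under 0.05 was reached by 3 of the 36 on the lower side, against 11.6% of all genes. Beside Ucp3, the peroxisomal enzyme Ehhadh was lower without overlap at 2.23 to 2.42 against 2.93 to 3.94 FPKM (-0.36, adjusted p = 0.154), whereas the fatty acid transporter Cd36 was higher at 144 ± 13.4 against 119 ± 15.3 FPKM (0.28, adjusted p = 0.302). The 33 genes of glycolysis, glycogen and lactate had a median of 0.01 with 18 higher and 15 lower (0.08 after rescaling, with 22 and 11), and Phka1, a subunit of phosphorylase kinase, was lower without overlap at 149 to 189 against 193 to 229 FPKM (-0.36, adjusted p = 0.168). The 78 nuclear genes of the respiratory chain tested had a median of 0.01 and a range of -0.18 to 0.25, with 44 higher and 34 lower (72 and 6 after rescaling, with a median of 0.09). The 34 genes of the TCA cycle had a median of -0.03, or 0.04 after rescaling.

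Of the 13 genes of the mitochondrial genome 12 were lower, with a median of -0.33 and 7 with an unadjusted p under 0.05, beside 11.6% of all genes. The complex I subunit gene mt-Nd4l stood at 18.2, 19.5, 53.4 and 69.5 FPKM in hypoxia and 59.3 ± 33.1 FPKM in normoxia (-0.61, adjusted p = 0.168). Its neighbour in the same complex, mt-Nd5, stood at 1343, 1148, 9673 and 9986 FPKM and at 2561, 2159, 10528 and 11860.1 FPKM (-0.55, adjusted p = 0.226), with a set difference of 2.62 on the log2 scale that was far larger than that with hypoxia. The ATP synthase subunit mt-Atp6 had -0.38 (adjusted p = 0.234). In mt-Nd4l and mt-Nd5 every hypoxic mouse was below the normoxic mice of its own library set, while in mt-Atp6 hypoxic mouse WTc360 (512 FPKM) was just above normoxic mouse WTc401 (507 FPKM). The part of the library set in these values was not tested beyond the block.

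**Figure D4:**
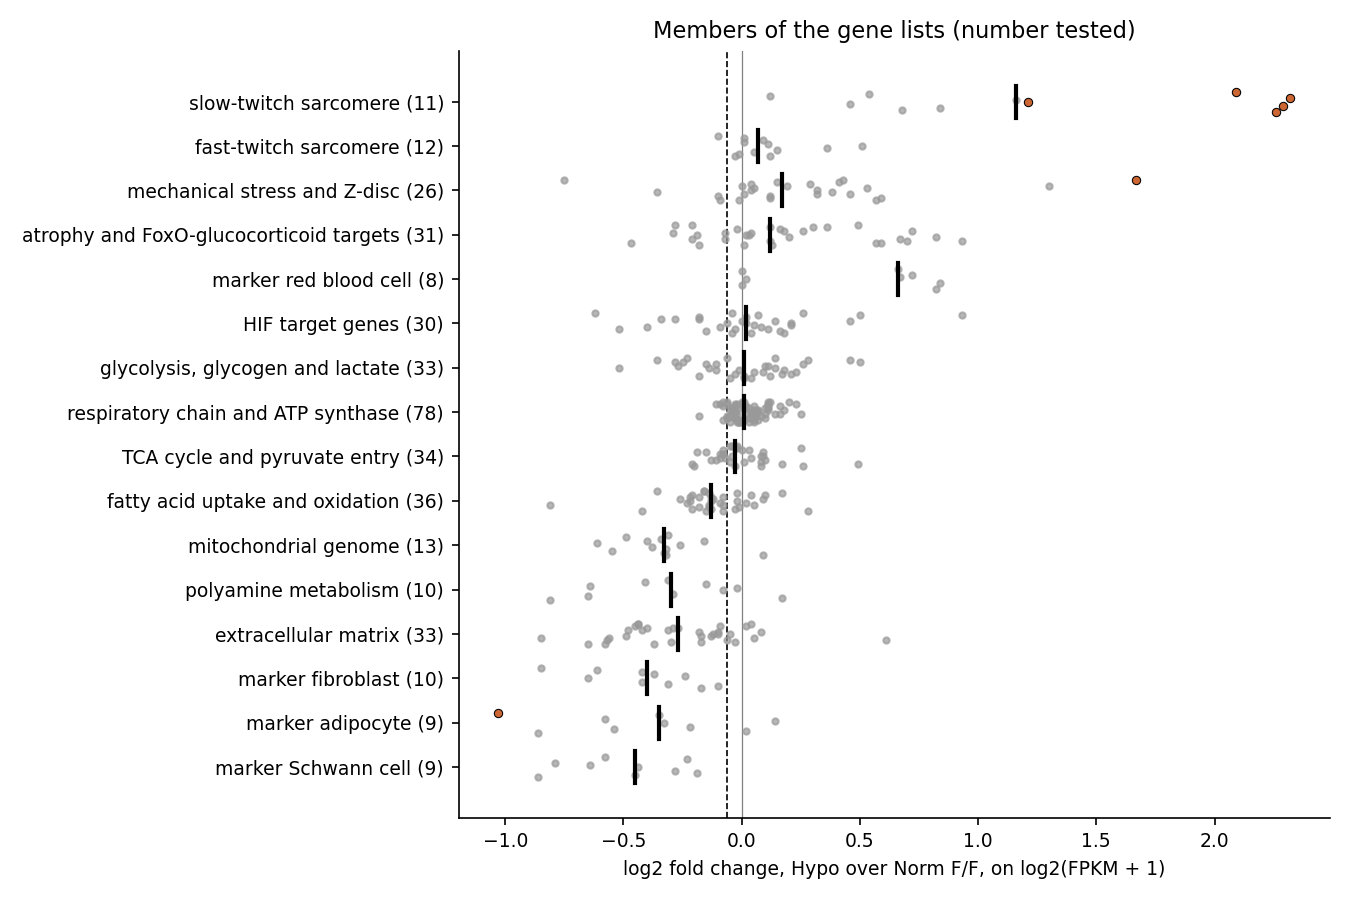
Log2 fold change of Hypo over Norm F/F, on log2(FPKM + 1), for every tested member of 16 gene lists, with the number tested in brackets; black bars are medians, orange points are members past the study's criterion and the dashed line is the median of all genes (-0.06). The slow-twitch list (median 1.16) and the red blood cell markers (0.66) lie to the right, and the Schwann cell (-0.45), fibroblast (-0.40) and mitochondrial genome (-0.33) lists to the left.

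Of 8 red blood cell markers, which include the oxygen carriers of blood, 7 had higher fitted values, with a median of 0.66. None passed the criterion, and 4 had an unadjusted p under 0.05 with higher values, beside 3.13% of all genes. The beta globin Hbb-bs stood at 367, 161, 184 and 84.5 FPKM in hypoxia and 117, 223, 57.1 and 62.4 FPKM in normoxia (0.82, adjusted p = 0.316), the alpha globin Hba-a1 at 120.0 ± 65.1 and 68.0 ± 41.3 FPKM (0.84, adjusted p = 0.302) and Alas2, the heme enzyme of red cell precursors, at 4.57 ± 2.87 and 2.36 ± 1.23 FPKM (0.67, adjusted p = 0.297). Normoxic mouse WTc369 was again above 3 hypoxic mice in Hbb-bs. The globin genes have near-identical copies between which reads may be split. Myoglobin (Mb), the oxygen store of the fiber, stood at 665 ± 196 and 794 ± 349.9 FPKM (-0.20, adjusted p = 0.727). Of 20 genes of oxygen storage, iron and heme in muscle 18 were lower (12 after rescaling), with a median of -0.09.

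Genes tied to muscle breakdown and to mechanical load were mostly higher. Of 31 genes of atrophy and FoxO or glucocorticoid response 21 were higher, with a median of 0.12 (0.19 after rescaling), and 8 had an unadjusted p under 0.05 with higher values, beside 3.13% of all genes. The transcription factor Foxo1 stood at 10.2, 11.1, 8.23 and 7.58 FPKM in hypoxia and 4.76, 4.78, 8.48 and 3.88 FPKM in normoxia (0.70, adjusted p = 0.226), Foxo3 at 6.95 ± 1.80 and 5.11 ± 0.912 FPKM (0.36, adjusted p = 0.227) and Cebpd, a target of glucocorticoids, at 8.32 ± 2.03 and 4.79 ± 3.09 FPKM (0.82, adjusted p = 0.178). The clock gene Per1, which glucocorticoids also induce, was higher without overlap at 13.0 to 21.6 against 5.31 to 12.6 FPKM (0.72, adjusted p = 0.226), and Cry1, another clock repressor, was lower at 4.31 ± 0.649 against 6.55 ± 2.42 FPKM (-0.46, adjusted p = 0.220). Of 26 genes of mechanical stress and the Z-disc 20 were higher, with a median of 0.17. Beside Csrp3 these include filamin C (Flnc, 0.41, adjusted p = 0.176), Pdlim3 (0.43, adjusted p = 0.176) and Nrap (0.32, adjusted p = 0.216), whereas Smtnl2 was lower without overlap at 66.1 to 99.7 against 115 to 192 FPKM (-0.75, adjusted p = 0.168).

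Polyamine genes, whose products support growth and translation, were lower in 9 of 10 members with a median of -0.30, beside 7467 of all 10740 genes. After rescaling 8 of the 10 were lower, with a median of -0.23. Amd1, which makes the donor of the aminopropyl groups, stood at 364, 461, 552 and 717 FPKM in hypoxia and 684, 698, 1079 and 1227 FPKM in normoxia (-0.81, SE 0.111, adjusted p = 0.101), with every hypoxic mouse below the normoxic mice of its library set. Reads of Amd1 may be shared with its copy Amd2. Spermine synthase Sms had -0.31 (adjusted p = 0.168) and spermine oxidase Smox -0.65 (adjusted p = 0.276). The insulin-like growth factor binding protein Igfbp5 stood at 117 ± 33.2 and 185 ± 36.8 FPKM (-0.68, adjusted p = 0.226). The stress gene Chac1, which breaks down glutathione, was higher at 39.2 ± 12.6 against 22.6 ± 8.78 FPKM (0.79, adjusted p = 0.126), and so was the glutathione transferase Gstm2 (0.75, adjusted p = 0.162), while the quinone reductase Nqo1 was lower without overlap at 9.57 to 12.0 against 13.8 to 20.2 FPKM (-0.57, adjusted p = 0.171).

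Of 33 extracellular matrix genes tested, which build the connective tissue between fibers, 28 had lower fitted values, beside 7467 of all 10740 genes. Their median was -0.27 (-0.20 after rescaling, with 25 lower), 0 passed the criterion, and 8 had an unadjusted p under 0.05 with lower values, beside 11.6% of all genes. The inhibitor Timp2 had -0.44 (adjusted p = 0.154), the basement membrane protein Nid1 -0.49 (adjusted p = 0.154) and the collagen binder Sparc -0.56 (adjusted p = 0.226). The fibrillar collagen Col3a1 stood at 20.1, 16.2, 17.9 and 18.2 FPKM in hypoxia and 31.3, 84.9, 18.2 and 24.9 FPKM in normoxia (-0.85, adjusted p = 0.310), where mouse WTc369 was far above the rest. All 10 fibroblast markers were lower, with a median of -0.40 (-0.32 after rescaling, with all 10 lower). The smallest p among them were those of dermatopontin (Dpt) at 30.6 ± 9.62 against 46.9 ± 12.2 FPKM (-0.61, adjusted p = 0.154) and Pi16 at 2.35 ± 0.859 against 4.22 ± 1.08 FPKM (-0.65, adjusted p = 0.154). Their summed level was 377 to 687 FPKM in hypoxia and 513 to 995 FPKM in normoxia, and no marker was at 0 in all 8 libraries.

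Markers of Schwann cells and of leukocytes also had mostly lower values, as had 7467 of all 10740 genes tested. All 9 Schwann cell markers tested were lower, with a median of -0.45 and a summed level of 52.0 to 71.2 FPKM in hypoxia and 184, 84.0, 120.4 and 61.4 FPKM in Norm F/F mice WTc368, WTc369, WTc397 and WTc401. Of 12 macrophage and leukocyte markers 11 were lower (median -0.29), with summed levels of 154, 132, 65.2 and 58.2 FPKM in Hypo F/F mice WTc341, WTc348, WTc360 and WTc361 and 114, 319.9, 83.2 and 109 FPKM in Norm F/F mice WTc368, WTc369, WTc397 and WTc401. The sums of the groups overlapped, and WTc369 was highest. After rescaling all 9 Schwann cell markers were lower, with a median of -0.41, and 11 of the 12 leukocyte markers, with a median of -0.23. The 15 endothelial markers had a median of -0.02, the 9 of smooth muscle and pericytes -0.12, the 8 of tendon 0.00 and the 5 of satellite cells -0.02, and rescaling turned the endothelial median to 0.05 and that of satellite cells to 0.01. The part of cell makeup in the genes above was not tested.

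Hypoxia was also applied to ChMKO mice, whose 8 libraries are separate samples with the low Xirp2 level of library set B. There the criterion was passed by 0.791% of the genes and an unadjusted p under 0.05 was reached by 17.5%. Of the 20 genes that passed in F/F, 19 had the same sign in ChMKO, 16 had an unadjusted p under 0.05 with that sign and 15 passed the criterion. Myh7 had a log2 fold change of 2.75 in ChMKO (SE 0.847, adjusted p = 0.104), Csrp3 2.02 (SE 0.479, adjusted p = 0.0428, without overlap) and Actc1 2.38 (adjusted p = 0.0787). On the lower side 1700001O22Rik had -1.88 (adjusted p = 0.00338), Myod1 -1.59 (adjusted p = 0.0272), Neto2 -1.28 (adjusted p = 0.0172), Sbk2 -1.43 (adjusted p = 0.0181) and Slc25a30 -1.17 (adjusted p = 0.0324), each without overlap between the ChMKO groups. The genes without an unadjusted p under 0.05 in ChMKO were Kcnf1 (0.67, adjusted p = 0.380), Scd1 (-0.17, adjusted p = 0.886), Lep (-0.39, adjusted p = 0.470) and Gm17720 (-0.01, adjusted p = 0.998). Vhl had -0.43 (adjusted p = 0.0295) and Ucp3 -0.69 (adjusted p = 0.223). Slc15a2, at 0.80 in F/F, had -0.01 in ChMKO (adjusted p = 0.984), a difference of -0.81 (adjusted p = 1.000), and Htatip2 had -0.34 (adjusted p = 0.0769), a difference of 0.35 (adjusted p = 1.000).

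The difference of the hypoxia effects between the genotypes was past an adjusted p of 0.05 in 0 genes (limma interaction, smallest adjusted p 0.346), with an unadjusted p under 0.05 in 261, and voom was not run on it. Among the 20 genes the difference had an unadjusted p under 0.05 in 1, 1700001O22Rik, at -0.76 (ChMKO minus F/F, adjusted p = 1.000). For Scd1 it was 1.04 (adjusted p = 1.000) and for Lep 0.65 (adjusted p = 1.000), and for Myh7 0.48 (adjusted p = 1.000). The Schwann cell markers had a median of 0.20 in ChMKO and -0.45 in F/F, the macrophage markers 0.13 and -0.29 and the adipocyte markers 0.16 and -0.35, and these list medians were not tested against each other. In ChMKO, as in F/F, all 11 slow-twitch genes were higher (median 1.33). In ChMKO all 13 mitochondrial genome genes were lower (median -0.58), against 12 of 13 in F/F, and 30 of 33 extracellular matrix genes (median -0.41), against 28 in F/F.

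**Figure D5:**
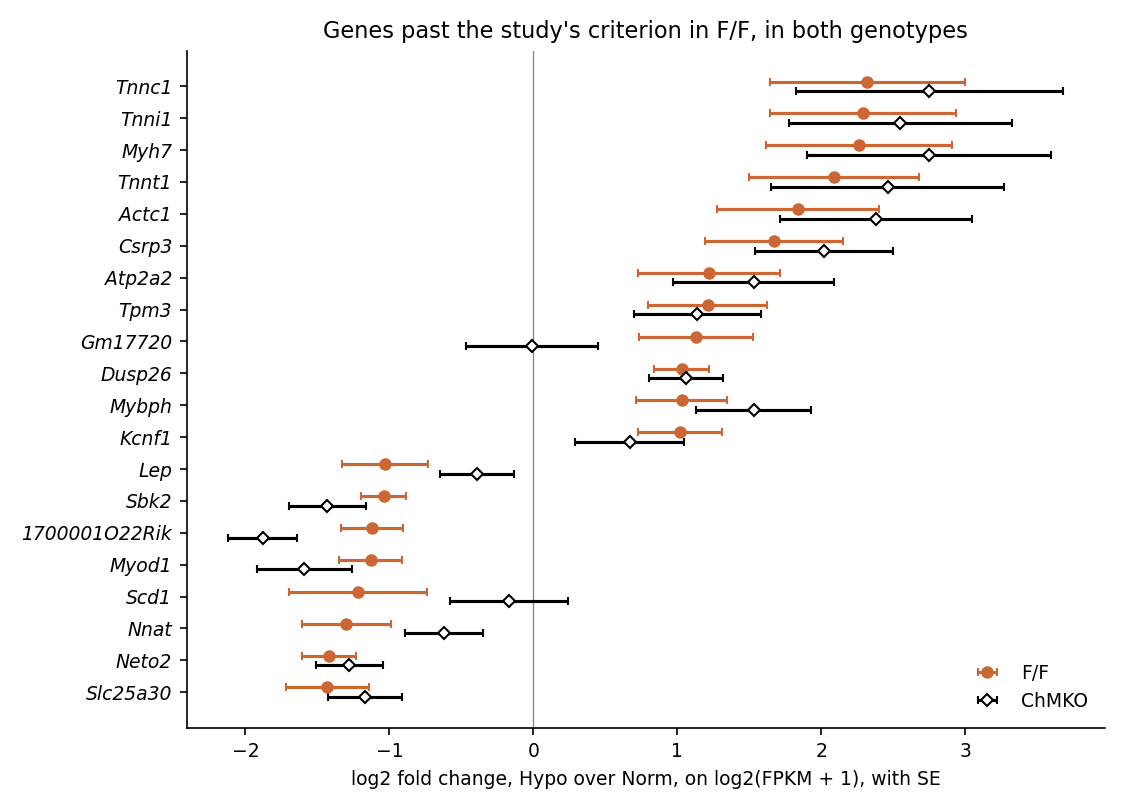
Log2 fold change of hypoxia over normoxia with its SE in F/F (filled circles) and ChMKO (open diamonds) for the 20 genes past the study's criterion in F/F, ordered by the F/F value; n = 4 mice in each group. The diamonds lie on the same side of 0 as the circles for 19 of 20 genes, the exception being Gm17720.

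Which muscle each gene marks was read from chow-fed F/F mice, where 5 GC and 4 SOL libraries of a separate table were compared as a description. By label each of these SOL libraries came from a mouse that also gave a GC library, and this pairing was not used. Over the 10286 genes matched, all SOL values were above all GC values in 27.3% and below in 10.9%. Of the 11 higher genes matched, 7 were above in SOL (Tnnc1, Tnni1, Tnnt1, Myh7, Tpm3, Atp2a2 and Csrp3), 2 were below (Actc1 and Kcnf1) and 2 overlapped. Of the 8 lower genes, 4 were below in SOL (Slc25a30, Neto2, 1700001O22Rik and Sbk2) and 0 above. Myh7 had a mean of 1989 FPKM in SOL, 133 times that in GC, and the GC range of 0.202 to 37.6 FPKM covered the Hypo F/F values of 3 of the 4 mice. Tnnc1 ranged from 0.413 to 48.5 FPKM in those GC samples. 1700001O22Rik had a mean of 0.204 FPKM in SOL and 11.1 FPKM in GC, and Neto2 0.114 and 1.62 FPKM. The tables were normalized separately, so levels set across them are a description only.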

How the data were processed

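RNA of gastrocnemius tissue was extracted with TRIzol, and libraries of enriched mRNA were sequenced on a NovaSeq instrument. The FPKM values were deposited by the authors, who trimmed reads with fastp 0.18.0 and aligned them with HISAT2. The tool behind the counts of this table is not given in the sources used here. The submitters' processing notes name GRCm39, HISAT2 2.1.0, StringTie 1.3.1, RSEM and Bowtie2 2.2.8. The authors tested with DESeq2 and, seeing no clear batch effect, made no correction for one. Where 2 entries shared a symbol the one with the higher mean was kept (23 left out).

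Values were fitted in R 4.3.3 with limma 3.58.1 (trend, two-sided, Benjamini-Hochberg over 10740 genes) on log2(FPKM + 1), so fold changes of low genes are understated. Genes needed a mean of 0.5 FPKM over the 8 libraries. The model held the condition and the library set. Whole reads were recovered from FPKM and gene length (100.0% of values up to 200 reads within 0.02 of a whole number) and tested with voom, which gave 57 genes past the study's criterion, 19 of them among the 20 of the FPKM fit. The fit was tested on simulated data. Scores were compared by exact permutation. Its repeat within library sets and the fast-twitch score without Tnnc2 were added after the data were seen. Each library is 1 mouse.

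Members and gene lists were chosen with earlier results of these data known, and no set test was run. Genes were named if past the criterion without overlap, if past it within a list or else among the 4 smallest p of a list, or as fixed markers. Other names, including the remaining genes past the criterion, were chosen after their values were seen. In the chow table, also FPKM deposited by the authors, 1 column that no label names was not used. Alternatives covered the block, pseudocount (0.1), filter, scaling, count model, all 24 libraries and each library left out. Fold changes and p-values deposited by the authors in other tables were not used. A few genes that the rule names are not reported here.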

Additional observations from a re-analysis of the deposited data

Results flagged for a closer look

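Each value below lay far from the other 3 mice of its group, by Dixon's gap test at its 95% limit. Of 196 groups tested 13 (6.63%) had such a mouse, and chance gives about 1 in 20.

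Normoxic mouse WTc369 was high in genes of slow or oxidative fibers. It had 21.9 FPKM of Tpm3 (others 8.52 to 9.52), 68.8 FPKM of Atp2a2 (others 21.1 to 29.0), 175 FPKM of Myl3 (others 32.7 to 41.1), 479 FPKM of Myh2 (others 220.0 to 238) and 28.2 FPKM of Egln3 (others 13.6 to 14.9). Hypoxic mouse WTc341 was high in 232 FPKM of Tnnc1 (others 41.5 to 67.4), 50.2 FPKM of Tnni1 (others 7.18 to 13.5) and 174 FPKM of Csrp3 (others 27.0 to 42.4). Hypoxic mouse WTc348 had 7.03 FPKM of Myod1 (others 3.36 to 3.92).

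Normoxic mouse WTc368 was low in 1700001O22Rik at 2.12 FPKM (others 4.74 to 5.10). Normoxic mouse WTc401 was low in Actn3 at 2533 FPKM (others 2982 to 3042) and high in Tfrc at 68.8 FPKM (others 43.3 to 46.9). In Mlxipl hypoxic mouse WTc360 stood at 8.76 FPKM (others 7.98 to 8.05), a small gap in absolute terms.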

How the results depend on the processing

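No paired analysis was possible because the groups compared share no replicate number. Of 335 refits of the 20 genes past the criterion 275 kept the call, 60 lost it and 0 turned direction. The number past the criterion was 47 (22 higher, 25 lower) with a pseudocount of 0.1, 57 (31 and 26) with voom on recovered reads and 48 (31 and 17) within library set A. Within set B 7 were higher and 16 lower, and with a filter at 5 FPKM 4 were lower. Leaving out 1 mouse gave 14 to 32 genes, 8 to 23 higher and 6 to 15 lower, with 32 without Hypo F/F mouse WTc348 and 32 without Norm F/F mouse WTc369. An adjusted p under 0.05 (limma) was reached by 26 genes in a fit of all 24 libraries, by 74 within set A, and by 0 to 5 with a mouse left out, where 5 came without WTc348, 2 without WTc369, and 1 each without WTc368 and without WTc397. The slow-twitch score difference ranged from 1.48 to 2.26 with a mouse left out. That of the fast-twitch score ranged from 0.00, where it turned sign without WTc397, to 0.11, and was 0.13 after rescaling. For these results the cause was not tested.

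The genes that turned direction were small in the fit. Within set A the log2 fold change was -0.03 for Myh4, 0.23 for Tnnc2, -0.01 for Tnni2, -0.04 for Tnnt3, -0.15 for Mlxip and 0.18 for Mb. Within set B it was -0.36 for Myh2, 0.14 for Mlx, 0.01 for Epas1 and -0.08 for Vegfa. After rescaling and with voom it was 0.01 and 0.01 for Mlxipl, 0.05 and 0.07 for Mlx, and 0.06 and 0.07 for Epas1. With a mouse left out it ranged from -0.22 to 0.40 for Myh2, -0.28 to 0.01 for Tnnc2, -0.03 to 0.09 for Tnnt3, -0.12 to 0.01 for Mlxipl, -0.07 to 0.08 for Mlxip, -0.05 to 0.03 for Mlx, -0.06 to 0.17 for Txnip, -0.08 to 0.06 for Epas1 and -0.35 to 0.07 for Mb. The cause was not tested. With 4 mice a group and 14817171 to 20307286 reads a library, genes near 1 FPKM are the least precise.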
